A study of Mus musculus with 24 samples.

Results

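The 9 genes *Setdb1*, *Ehmt1*, *Ehmt2*, *Suv39h1*, *Suv39h2*, *Trim28*, *Cbx1*, *Cbx3* and *Cbx5* were followed through the differentiation of male mouse embryonic stem cells (mESCs). They were chosen by name from the 25965 gene entries of the deposited expression table, and each matched 1 entry. The cells were male C57/Bl6 mESC lines expanded in 2i medium, which holds inhibitors of MEK and GSK3, and then weaned into DME HiHi medium to differentiate. All cultures received a short hairpin RNA virus at day 2 and were selected with puromycin from day 3. The hairpins Smarcc1.6 and Smarcc1.7 target *Smarcc1*, the hairpins Smarca4.4 and Smarca4.6 target *Smarca4*, and Nons is the nonsilencing control. *Smarcc1* encodes a core subunit and *Smarca4* the ATPase of the BAF chromatin remodelling complex. RNA was sequenced on days 4, 5, 6 and 7 with 1 library per hairpin and day, which gave 8 *Smarcc1* knockdown, 8 *Smarca4* knockdown and 4 Nons libraries. A genotype label calls the Smarca4 libraries a Smarcc knockdown; the titles, which name Smarca4, were followed. The labels do not say whether cultures were independent, so *p*-values measure the spread between the hairpins of a target, and both knockdowns were set against 1 library of Nons on each day. The 4 libraries of a further Nons series were not analysed here.

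Methylation of lysine 9 of histone H3 (H3K9) marks silent chromatin. Suv39h1 and Suv39h2 trimethylate it in pericentromeric heterochromatin, Ehmt1 (GLP) and Ehmt2 (G9a) form a heterodimer that places mono- and dimethylation, and Setdb1 trimethylates it at retroelements. Trim28 is the corepressor that KRAB zinc finger proteins bring to their DNA targets, and it recruits Setdb1. The HP1 proteins Cbx5 (HP1α), Cbx1 (HP1β) and Cbx3 (HP1γ) bind methylated H3K9 through their chromodomain. In mESCs, Trim28 and Setdb1 are known for silencing endogenous retroviruses, and Ehmt2 for silencing pluripotency and germline genes as cells leave the pluripotent state.

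In mm10 coordinates the genes lie at chr7:13024152-13031035 (*Trim28*), chr3:95323525-95357202 (*Setdb1*), chr2:24790769-24919609 (*Ehmt1*), chr17:34898469-34914052 (*Ehmt2*), chrX:8061171-8074760 (*Suv39h1*), chr2:3455815-3475031 (*Suv39h2*), chr11:96789127-96808640 (*Cbx1*), chr6:51470360-51483704 (*Cbx3*) and chr15:103191544-103239816 (*Cbx5*). The promoters of the gene with the largest fall with differentiation (*Trim28*), of the methyltransferase gene with the largest fall (*Ehmt2*) and of the gene that rose (*Suv39h1*) are shown so that their letters can be compared. Each is the 250 bases upstream of a RefSeq start site in GRCm38.p6, read 5′ to 3′ on the gene's strand, at chr7:13023902-13024151 on the plus strand, chr17:34898224-34898473 on the plus strand and chrX:8074761-8075010 on the minus strand. Capitals mark matches on either strand to a GC box (GGGCGG), an E-box (CACGTG) or a CCAAT box (CCAAT).
Trim28: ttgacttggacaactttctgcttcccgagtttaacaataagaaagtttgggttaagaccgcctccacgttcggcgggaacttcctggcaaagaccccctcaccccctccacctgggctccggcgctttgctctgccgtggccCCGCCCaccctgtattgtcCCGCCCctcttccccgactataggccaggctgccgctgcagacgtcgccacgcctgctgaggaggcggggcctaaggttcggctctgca
Ehmt2: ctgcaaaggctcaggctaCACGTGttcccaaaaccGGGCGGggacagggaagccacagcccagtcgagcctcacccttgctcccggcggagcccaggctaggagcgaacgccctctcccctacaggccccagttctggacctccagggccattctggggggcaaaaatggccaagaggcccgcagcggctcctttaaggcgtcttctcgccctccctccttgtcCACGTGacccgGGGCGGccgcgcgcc
Suv39h1: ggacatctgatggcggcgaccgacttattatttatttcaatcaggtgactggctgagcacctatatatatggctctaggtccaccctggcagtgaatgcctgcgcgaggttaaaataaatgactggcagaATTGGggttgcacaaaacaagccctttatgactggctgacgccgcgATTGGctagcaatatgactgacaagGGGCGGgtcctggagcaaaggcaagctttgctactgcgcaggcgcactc
A GC box was present in 12 of the 13 RefSeq windows of the 9 genes and in at least 1 window of each gene, against 32.7% of all 32851 mouse promoter windows of this length. Neither the TATA box (TATAAA, 12.4% of all windows) nor, outside *Ehmt2* and *Cbx5*, the E-box (6.02% of all windows) matched in them. The CCAAT box, at 33.8% of all windows, matched in *Suv39h1*, *Setdb1* and *Cbx5*. Matches to the cAMP response element (TGACGTCA, 1.55% of all windows) and the ETS core (CCGGAAG, 6.91% of all windows) were found in *Suv39h2* and *Setdb1*, respectively. The *Trim28* window held 17 CG dinucleotides, the *Ehmt2* window shown 18 and the *Suv39h1* window shown 11, where the median of all windows is 6.0. The other RefSeq windows of *Ehmt2* and *Suv39h1* held 36 and 25. The gene that rose and the genes that fell shared the GC box. The CCAAT box of *Suv39h1* was absent from the *Trim28* and *Ehmt2* windows shown but matched in *Setdb1*, which also fell.

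The libraries held 6829596 to 27472885 reads, and the smallest, Smarca4.4 on day 5, was followed by one of 15717152. Levels are given as rpm, that is relative to the total of the library, and between genes as rpm per kilobase of merged exons. Against the 3 reads taken as the smallest number told from none, each of the 9 genes had 270 reads (*Suv39h1* in the smallest library) to 50710 reads per gene and library (*Trim28* with Smarca4.4 on day 4). *Smarcc1* fell by 1.33 ± 0.21 on the log2 scale (SE, adjusted *p* = 0.00115) in *Smarcc1* knockdown, and *Smarca4* fell by 1.79 ± 0.29 (adjusted *p* = 0.00277) in *Smarca4* knockdown. Both targets were below the same-day Nons in 8 of 8 of their own libraries. The summed level of 6 pluripotency genes (*Pou5f1*, *Sox2*, *Nanog*, *Zfp42*, *Esrrb*, *Klf4*) went from 1785 to 2201 rpm on day 4 to 328 to 709 rpm on day 7, while *Col1a1*, *Col1a2*, *Acta2* and *Twist1* together went from 4.23 to 7.03 rpm to 141 to 556 rpm. The blood genes *Ptprc* and *Hbb-bh1* were at the level of no reads or close to it, with a summed level of at most 0.264 rpm.

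Per kilobase, *Trim28* was the highest of the 9 genes and *Suv39h1* the lowest in 20 of 20 libraries. The median over the libraries was 171 rpm per kilobase for *Trim28*, 88.9 for *Cbx1* and 59.7 for *Cbx5*. *Cbx1* and *Cbx5* took ranks 2 and 3 in every library. *Cbx1* was above *Cbx5* on days 4 and 5 and below it on day 7. On day 6 it was below *Cbx5* with Smarca4.4 and above it in the other libraries. The remaining genes lay far below, at medians of 19.3 for *Ehmt2*, 15.1 for *Cbx3*, 14.1 for *Setdb1*, 13.5 for *Suv39h2* and 12.4 rpm per kilobase for *Ehmt1*. Their ranks ran between 4 and 8. *Ehmt2* was above *Ehmt1* in 20 of 20 libraries, and the other ranks crossed from library to library. *Suv39h1*, at 6.97 rpm per kilobase, was on every day below its paralogue *Suv39h2*.

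With differentiation the largest change was that of *Trim28*. Its level in Nons was 1710.1 rpm on day 4, 728 on day 5, 314 on day 6 and 387 on day 7. In *Smarcc1* knockdown it was 2293, 604, 452 and 633 rpm over the same days with Smarcc1.6, and 2165, 1101, 699 and 624 rpm with Smarcc1.7. In *Smarca4* knockdown it was 2164, 1084, 719 and 505 rpm with Smarca4.4, and 1916, 1356, 459.6 and 482 rpm with Smarca4.6. Every day 4 library was above every library of the later days. Over the 3 groups *Trim28* fell by 2.00 ± 0.20 on the log2 scale from day 4 to day 7 (SE, adjusted *p* = 1.8e-06), to 0.249 times its day 4 level. The fall was placed early, with a log2 difference of -1.14 from day 4 to day 5 (adjusted *p* = 0.000822) and -0.94 from day 5 to day 6 (adjusted *p* = 0.00341), while day 7 differed from day 6 by 0.08 (95% interval -0.35 to 0.51).

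Of the 9 genes, 6 were called between day 4 and day 7, a share close to the 64.5% called among the 13296 genes tested. By direction, 5 fell, against 28.8% of all genes tested, and 1 rose, against 35.7%. The median log2 difference of the 9 genes was -0.76, and that of all genes tested 0.08. Centring the libraries on their median gene lowered the median of all genes by 0.18 and turned the direction of none of the 9 differences. In bulk RNA a smaller share of cells that express a gene and less RNA per cell cannot be told apart. Markers of several cell types moved over the same days. All 6 pluripotency genes fell and all 4 mesenchyme genes given above rose. Of the primed epiblast genes, *Dnmt3b* (-2.41) and *Otx2* (-0.93) fell and *Fgf5* was at 0.06, with a summed level of 982 to 1415 rpm on day 4 and 195 to 335 rpm on day 7. The simple epithelial keratin genes *Krt8* (6.53) and *Krt18* (6.40), listed with *Cdx2* as trophoblast genes, rose, and the summed level of the list went from 23.5 to 31.2 rpm to 1465 to 3280 rpm, while *Cdx2* was at most 1.28 rpm. *Gata4*, the endoderm gene that was tested, rose by 2.57. Of 3 neural genes *Nes* rose by 2.58, while the list median was -0.17 and its lowest value -0.67. The part of these markers in the changes of the 9 genes was not tested.

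**Figure D1:**
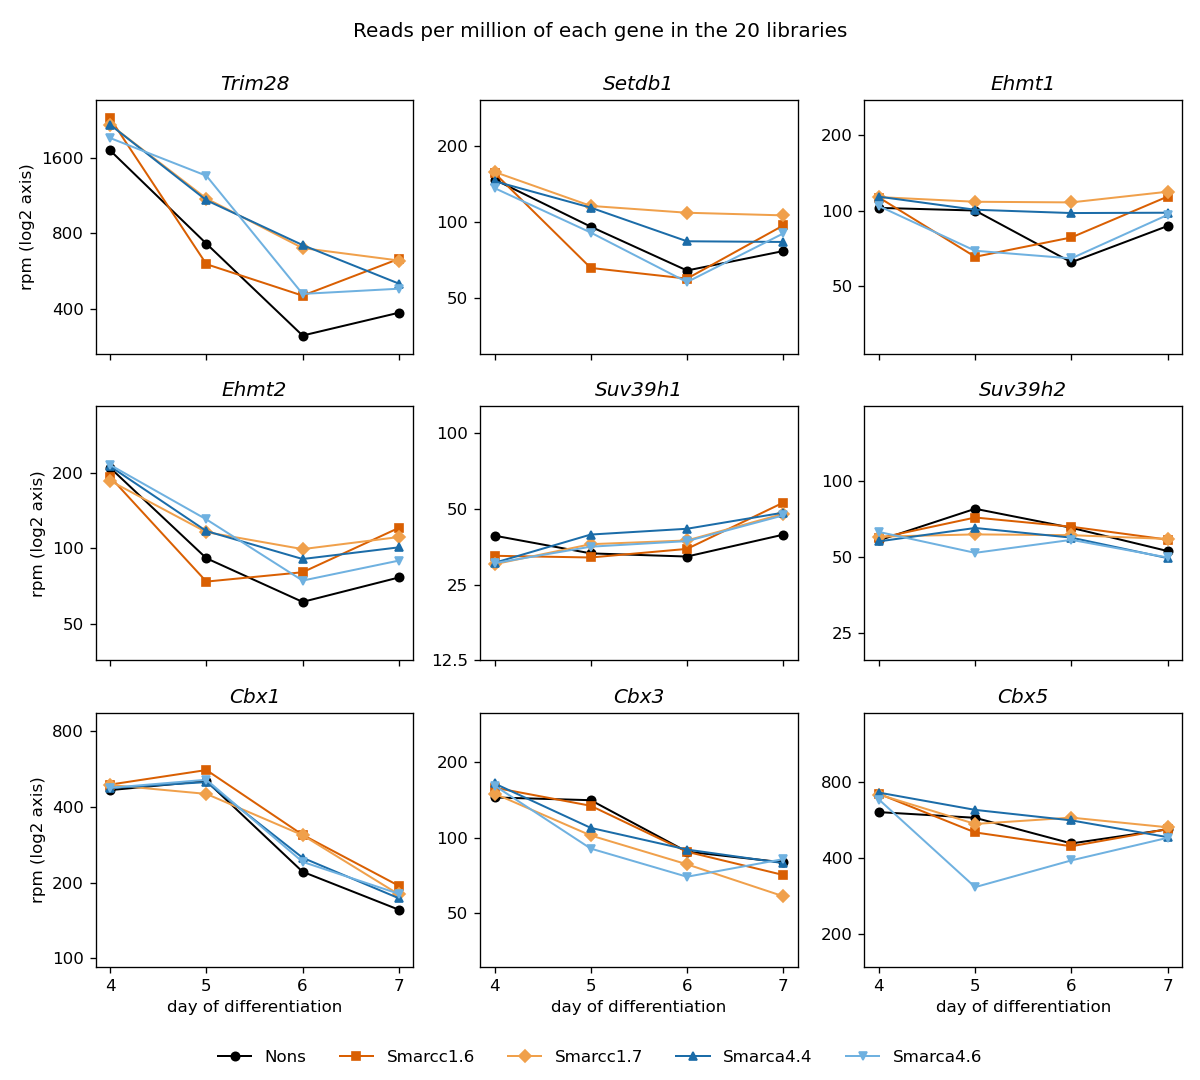
Level of each of the 9 genes in rpm on a log2 axis against the day of differentiation, 1 line per culture series (Nons and the 4 hairpins) and 1 point per library, with the same log range in every panel. *Trim28* starts between 1710.1 and 2293 rpm and ends between 387 and 633 rpm, *Cbx1* drops after day 5, and *Suv39h1* moves within 30.1 to 52.9 rpm.

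*Setdb1*, which encodes the methyltransferase that Trim28 recruits, had a smaller log2 change. It stood at 136 to 158 rpm in the 5 libraries of day 4, 65.7 to 116 on day 5, 57.7 to 109 on day 6 and 76.6 to 106 on day 7. The day 4 libraries did not overlap with those of any later day. The fall from day 4 to day 7 was 0.76 ± 0.20 on the log2 scale (adjusted *p* = 0.00537), and of the single steps that from day 4 to day 5 passed the threshold (-0.65, adjusted *p* = 0.0248). Within a library, reads of *Trim28* outnumbered those of *Setdb1* by 11.6 to 14.9 times on day 4 and by 5.05 to 6.54 times on day 7.

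*Ehmt2* and *Ehmt1*, whose products act as a heterodimer, changed unequally. *Ehmt2* in Nons was 209, 91.2, 61.1 and 76.5 rpm on days 4, 5, 6 and 7. With Smarcc1.6 it was 192, 73.6, 80.2 and 120.4 rpm, and with Smarcc1.7 185, 116, 99.1 and 111 rpm. With Smarca4.4 it was 212, 117, 90.6 and 101 rpm, and with Smarca4.6 214, 130.2, 74.3 and 89.2 rpm. The 5 day 4 libraries were above all others, and the fall from day 4 to day 7 was 1.11 ± 0.14 on the log2 scale (adjusted *p* = 1.95e-05). *Ehmt1* ranged from 103 to 114 rpm on day 4 and from 86.9 to 119 rpm on day 7, a difference of -0.12 (95% interval -0.52 to 0.28) that did not pass the threshold. The reads of *Ehmt2* per read of *Ehmt1* went from 1.64 to 2.05 on day 4 to 0.88 to 1.06 on day 7, ranges that did not overlap.

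The Suv39h paralogues, whose products share a role, also changed unequally. *Suv39h1* was the single gene of the 9 that rose, by 0.45 ± 0.11 on the log2 scale from day 4 to day 7 (adjusted *p* = 0.00309). Its level in Nons was 39.1, 33.3, 32.3 and 39.5 rpm on days 4 to 7. With Smarcc1.6 it was 32.5, 32.0, 34.7 and 52.9 rpm, and with Smarcc1.7 30.1, 36.2, 37.5 and 47.8 rpm. With Smarca4.4 it was 30.5, 39.5, 41.7 and 48.3 rpm, and with Smarca4.6 30.4, 35.4, 37.2 and 47.1 rpm. By group the log2 difference was 0.68 ± 0.17 in *Smarcc1* knockdown, 0.65 ± 0.17 in *Smarca4* knockdown and 0.01 ± 0.23 in Nons, and the test of these group differences, given with the interactions below, did not pass the threshold. *Suv39h2* stayed between 49.5 and 77.7 rpm over the 20 libraries, with a log2 difference from day 4 to day 7 of -0.15 (95% interval -0.39 to 0.09). Reads of *Suv39h1* per read of *Suv39h2* were 0.48 to 0.67 on day 4 and 0.75 to 0.98 on day 7. The longest single exon overlap with a gene on the other strand was 600 bases for *Suv39h1* (with *Gm14820*), 147 for *Suv39h2* and 176 for *Setdb1*. Whether reads were counted by strand is not given in the sources used here.

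**Figure D2:**
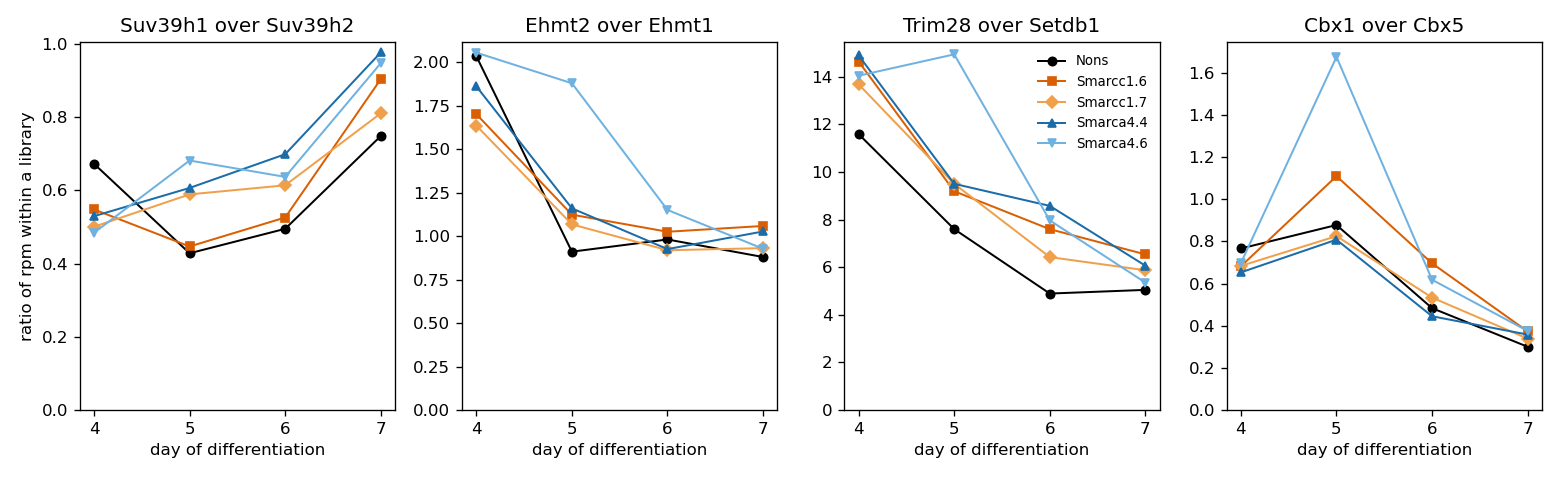
Ratio of the rpm of paired genes within a library against the day of differentiation, 1 line per culture series and linear axes from 0. From day 4 to day 7 the ratio of *Suv39h1* to *Suv39h2* goes up, and those of *Ehmt2* to *Ehmt1*, *Trim28* to *Setdb1* and *Cbx1* to *Cbx5* go down in all 5 series (0.30 to 0.38 for the last on day 7). Smarca4.6 stands apart on day 5 in the 3 falling ratios, at 1.88, 14.9 and 1.67.

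Among the HP1 genes, *Cbx1* had the largest fall, and it came after day 5. Its level in Nons was 466, 507, 221 and 156 rpm on days 4, 5, 6 and 7. With the *Smarcc1* hairpins it was 490.5, 560.4, 309.6 and 194 rpm for Smarcc1.6, and 489, 450.4, 309 and 179 rpm for Smarcc1.7. With the *Smarca4* hairpins it was 475, 502, 251 and 173 rpm for Smarca4.4, and 476, 513, 242 and 180.3 rpm for Smarca4.6. Day 4 and day 5 overlapped, and each later day lay below the one before with no overlap. The steps had log2 differences of 0.08 (adjusted *p* = 0.539), -0.98 (adjusted *p* = 2.93e-05) and -0.57 (adjusted *p* = 0.00263), and the fall from day 4 to day 7 was 1.47 ± 0.10 (adjusted *p* = 9.0e-08). *Cbx3* ranged from 145 to 164 rpm on day 4, 90.6 to 141 on day 5, 70.0 to 89.8 on day 6 and 58.6 to 82.3 rpm on day 7, and fell by 1.04 ± 0.13 from day 4 to day 7 (adjusted *p* = 1.5e-05). *Cbx3* has 8 named pseudogenes, so reads could be split between copies in a way that the sources do not state.

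*Cbx5* had a log2 difference of -0.41 ± 0.19 from day 4 to day 7, with an adjusted *p* of 0.0715. Its levels were 608 to 727 rpm on day 4 and 481 to 529.5 rpm on day 7, which did not overlap, and the spread was widest on day 5, where Smarca4.6 had 306 rpm and the other libraries 505 to 621. The difference passed the threshold with the culture series as a block (adjusted *p* = 0.0367), under the additive model (adjusted *p* = 0.0137), with centring on the median gene (-0.58, adjusted *p* = 0.00942), without Smarca4.4 (adjusted *p* = 0.0426), without Smarca4.6 (adjusted *p* = 0.0338) and without the Smarca4.4 library of day 5 (adjusted *p* = 0.0143). *Cbx1* made up 34.8% to 38.2% of the HP1 reads on day 4, a larger part on day 5 (40.7% to 56.4%) and 20.6% to 24.7% on day 7. *Cbx5* made up 49.9% to 53.2% on day 4, 33.7% to 50.4% on day 5 and 64.7% to 69.0% on day 7. The summed level of the 3 genes went from 1219 to 1368 rpm on day 4 to 736 to 786 rpm on day 7.

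By step, 4 of the 9 genes fell between day 4 and day 5 (*Trim28*, *Ehmt2*, *Setdb1* and *Cbx3*), against 38.7% of all genes called and 19.2% called lower. Between day 5 and day 6 there were again 4 that fell (*Cbx1*, *Trim28*, *Cbx3* and *Ehmt2*), against 32.3% called and 15.3% called lower. Between day 6 and day 7, *Cbx1* fell and *Suv39h1* rose by 0.35 (adjusted *p* = 0.0342), against 27.5% called, 10.6% lower and 16.9% higher.

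Genes that act with the 9 moved from day 4 to day 7 as follows, each list being described by its counts. In this comparison 64.5% of all genes tested were called, 28.8% lower and 35.7% higher. Of 4 genes of the HUSH complex, which works with Setdb1 on retroelements and young genes, *Tasor* (log2 difference from day 4 to day 7 of -2.19, SE 0.20) and the associated ATPase gene *Morc2a* (-1.13, SE 0.17) fell. Of 3 partners and relatives of *Setdb1*, *Setdb2* fell (-0.57) and *Atf7ip2* rose (0.57). Among 4 partners of the Ehmt enzymes, the chromodomain genes *Cdyl2* (-2.02, SE 0.25) and *Cdyl* (-1.28, SE 0.14) fell. All 5 KRAB zinc finger genes listed fell, from *Zfp57*, which guards imprinted loci (-0.49), through *Gm15446* (-0.50), *Zfp809* (-0.82) and *Zfp568* (-1.04) to *Zfp932* (-1.05). Of 9 genes of HP1 partners and heterochromatin factors, 6 fell, led by the remodeller gene *Hells* (-2.35, SE 0.16), *Uhrf1*, which directs maintenance DNA methylation (-1.74, SE 0.17), and the chromatin assembly factor gene *Chaf1b* (-1.33, SE 0.13), while *Lbr*, the lamin B receptor gene, rose (0.82). Of the 10 H3K9 demethylase genes 9 were tested, of which *Jmjd1c* (-1.02, SE 0.29), *Kdm4c* (-0.95), *Kdm3a* (-0.86) and *Phf8* (-0.68) fell and *Kdm7a* rose (0.72). The list medians ran from -1.08 for the HP1 and heterochromatin factors to -0.08 for the demethylases, where that of all genes tested was 0.08.

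**Figure D3:**
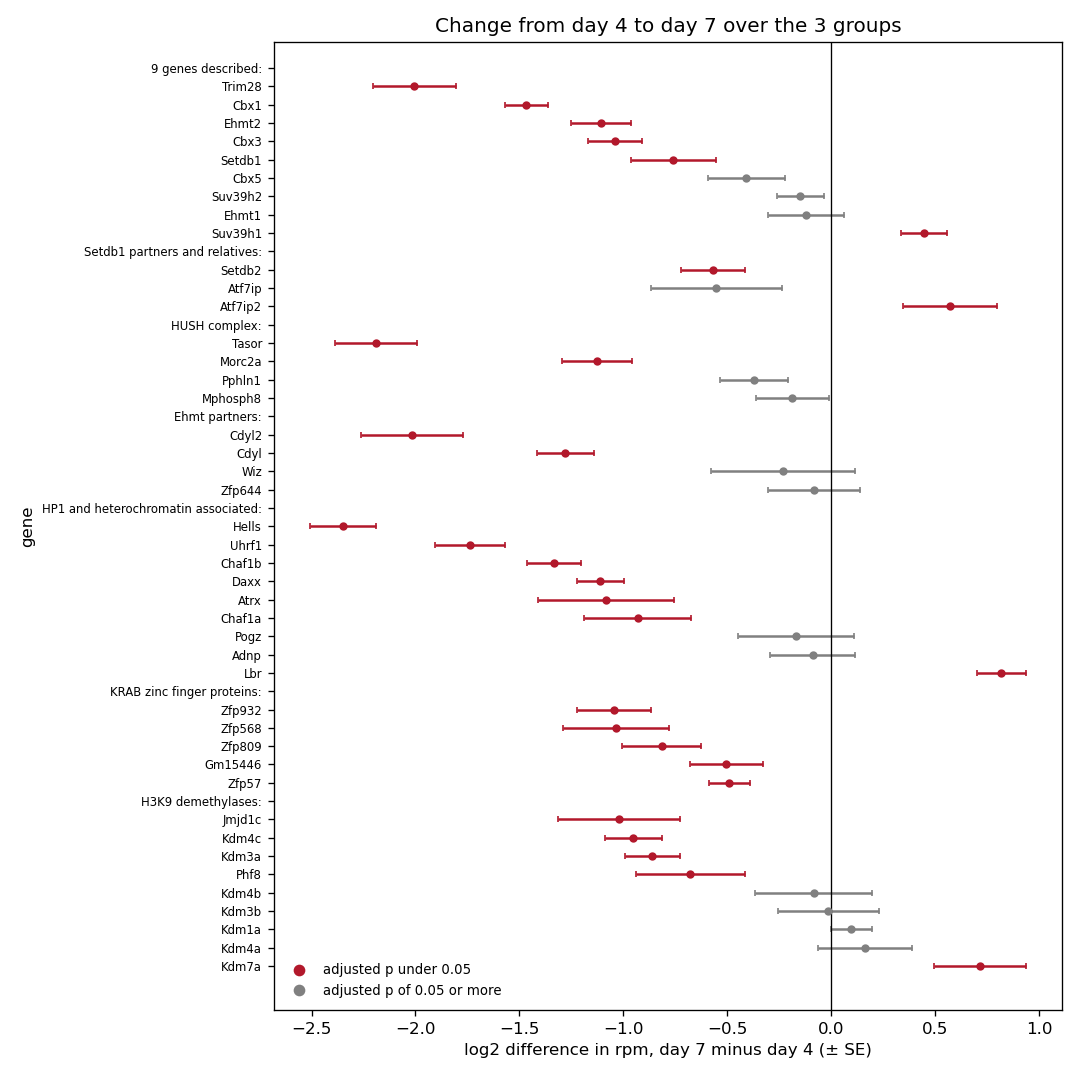
Log2 difference in rpm between day 7 and day 4, averaged over Nons and both knockdowns, for the 9 genes and for the lists of associated genes; points are estimates, bars are the SE, and red marks an adjusted *p* under 0.05. *Trim28* lies at -2.00 among the 9, and *Hells* (-2.35) and *Tasor* (-2.19) are the lowest of the associated genes.

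Each knockdown was then compared with Nons, and in neither did the level of any of the 9 genes pass the threshold. By limma, 0 of the 9 genes were called in *Smarcc1* knockdown, against 10.6% of all genes tested, and 0 in *Smarca4* knockdown, against 6.71%. Under the stricter filter, a mean of at least 10 rpm, 491 and 266 of 8988 genes were called, and again 0 of the 9. At an unadjusted *p* under 0.05 there were 1 (*Trim28*) and 2 (*Trim28* and *Ehmt2*), and limma-voom on the recovered reads also called 0 in each. Both contrasts share the Nons libraries. *Trim28* was higher than the same-day Nons in 7 of 8 *Smarcc1* knockdown libraries, the exception being Smarcc1.6 on day 5, and in 8 of 8 *Smarca4* knockdown libraries. The difference was 0.52 ± 0.18 on the log2 scale (95% interval 0.13 to 0.92, adjusted *p* = 0.0946) in *Smarcc1* knockdown and 0.55 ± 0.18 (95% interval 0.16 to 0.95, adjusted *p* = 0.0978) in *Smarca4* knockdown. With the culture series as a block the adjusted *p* values were 0.319 and 0.356. Without Smarcc1.6 the *Trim28* difference in *Smarcc1* knockdown was 0.70, with an adjusted *p* of 0.0381, and without Smarcc1.7 it was 0.35 (adjusted *p* = 0.329). The hairpins of a target differed from each other in *Trim28* by up to 0.87 on the log2 scale within a day.

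*Ehmt2*, the next in size, was 0.25 ± 0.13 (adjusted *p* = 0.282) and 0.30 ± 0.13 (adjusted *p* = 0.229) above Nons. It was above the Nons library of its day in 2 of 4 hairpin libraries on day 4, 3 of 4 on day 5 and 4 of 4 on days 6 and 7. *Ehmt1*, *Suv39h1*, *Trim28* and *Cbx1* were likewise above Nons in 4 of 4 on days 6 and 7. All hairpin libraries of a day are set against the same single Nons library, so these counts are not independent. The share of all genes with this pattern was not counted. For the other 7 genes the log2 difference lay between -0.14 and 0.22 in *Smarcc1* knockdown and between -0.15 and 0.09 in *Smarca4* knockdown. Their intervals ran from -0.40 to 0.58 in *Smarcc1* knockdown and from -0.44 to 0.48 in *Smarca4* knockdown, so a doubling or a halving lay outside all of them. The intervals take the days of a hairpin as independent and hold no spread between Nons cultures, so they may be too narrow. The median of the 9 genes was 0.17 and 0.08, and that of all genes tested 0.06 in each contrast. Between the knockdowns, a contrast that does not use Nons, 0 of the 9 genes were called, against 4.09% of all genes tested, and 0 had an unadjusted *p* under 0.05. *Trim28* differed there by -0.03 (95% interval -0.35 to 0.29), and the intervals of the 9 genes ran from -0.35 to 0.44. Within a library, the ratio of *Trim28* to *Setdb1* was above that of the same-day Nons in all 16 hairpin libraries, a ratio singled out after its values were seen and set against a single Nons series.

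**Figure D4:**
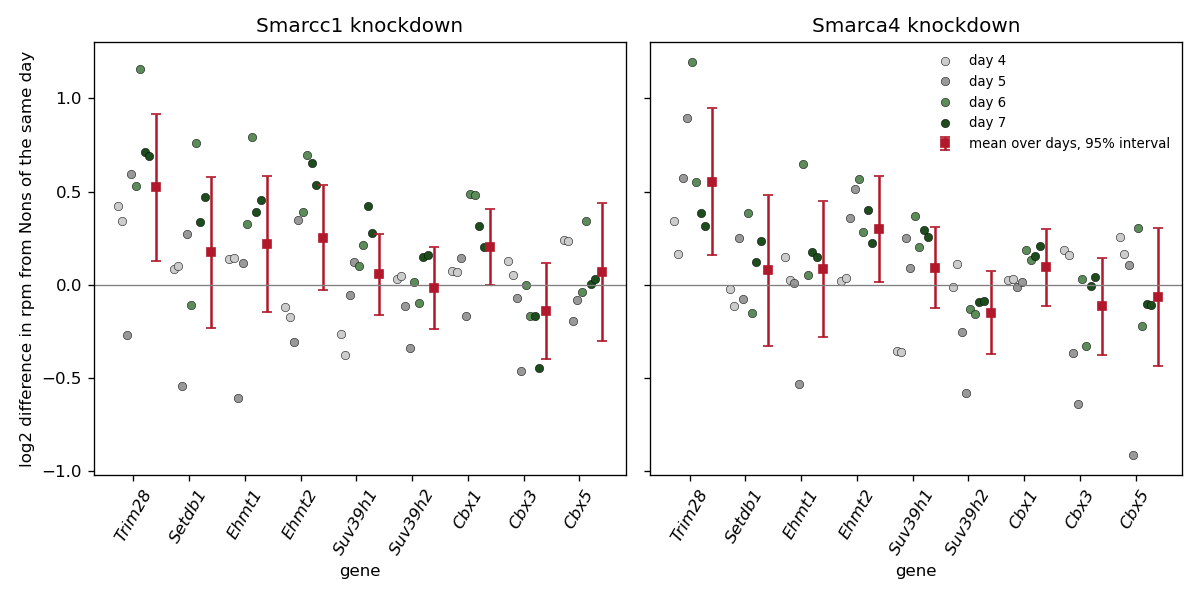
Log2 difference in rpm of each hairpin library from Nons of the same day (circles, shaded by day, 2 hairpins per day) and the mean over days with its 95% interval (red squares) for the 9 genes in *Smarcc1* knockdown and *Smarca4* knockdown. *Trim28* has the highest mean, 0.52 and 0.55, and its interval and that of *Ehmt2* in *Smarca4* knockdown lie above 0; after adjustment no gene passes the threshold.

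Cell type markers moved in the same contrasts, and their part in the values of the 9 genes was not tested. Of the 6 pluripotency genes, 5 rose in *Smarcc1* knockdown (*Esrrb*, *Klf4*, *Nanog*, *Zfp42* and *Sox2*) and 3 in *Smarca4* knockdown (*Esrrb*, *Nanog* and *Zfp42*), with *Esrrb* at 1.84 and 1.24 on the log2 scale. The lowest of the 6 differences was 0.05 in *Smarcc1* knockdown and -0.51 in *Smarca4* knockdown. Of all genes tested, 7.54% and 4.75% rose. The summed level of the 6 genes was above that of Nons in 2, 3, 1 and 2 of 4 hairpin libraries on days 4, 5, 6 and 7. That sum follows *Pou5f1* most, which was called in neither contrast. On day 4 the median was 1406 rpm for *Pou5f1* and 2053 rpm for the sum. Of the primed epiblast genes, *Fgf5* (-1.31 and -1.10) and *Otx2* (-0.45 and -0.60) fell in both knockdowns, and *Dnmt3b* stood at 0.09 and 0.18. Their summed level was above that of Nons in 0, 0, 2 and 4 of 4 hairpin libraries on days 4 to 7. It was mostly *Dnmt3b*, with a median of 1004 rpm on day 4 where the sum had 1082 rpm. Of 3 neural genes, *Sox1* (2.40 and 2.33) rose in both. The neural list had medians of 0.26 and 0.30 and lowest values of -0.45 and -0.39. Its sum was above Nons in 4, 2, 2 and 0 of 4 hairpin libraries. *Nes* had a median of 74.0 rpm on day 7, where the sum had 95.6 rpm. *Gata4* (1.14 and 0.89), the endoderm gene that was tested, rose in both. *Krt8* (-0.71) and *Krt18* (-0.77) fell in *Smarcc1* knockdown and stood at 0.04 and -0.11 in *Smarca4* knockdown.

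The mesenchyme genes did not move together. *Acta2* fell in both knockdowns (-1.22 and -1.65), *Twist1* fell (-0.67) and *Col1a1* rose (1.32) in *Smarcc1* knockdown, and the median of the 4 genes was 0.17 and -0.50. Their sum was 22.7 to 37.8 rpm in the hairpin libraries of day 6 against 88.4 rpm in Nons, and 141 to 286 rpm on day 7 against 556 rpm. *Acta2* took up much of it, with a median of 152 rpm on day 7 where the sum had 246 rpm.

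The marker and associated genes were called by the main fit, without a block for the culture series. Their values were not recomputed under the alternatives. With that block, calls over all genes went from 1412 to 605 in *Smarcc1* knockdown and from 892 to 258 in *Smarca4* knockdown. Among the associated genes, *Pphln1*, of the HUSH complex, fell by 0.93 ± 0.15 (adjusted *p* = 0.00156) in *Smarcc1* knockdown and by 1.02 ± 0.15 (adjusted *p* = 0.00155) in *Smarca4* knockdown. *Daxx*, a histone H3.3 chaperone gene, rose by 0.59 (adjusted *p* = 0.00266) and 0.38 (adjusted *p* = 0.0479), and *Zfp57* by 0.43 (adjusted *p* = 0.00871) and 0.38 (adjusted *p* = 0.0287). *Cdyl2* rose in *Smarcc1* knockdown by 1.04 (adjusted *p* = 0.00963). By limma, 0 of the 3 partners and relatives of *Setdb1* and 0 of the 9 demethylase genes tested were called in either contrast, where 2 and 1 in *Smarcc1* knockdown and 0 and 2 in *Smarca4* knockdown had an unadjusted *p* under 0.05. Of 13 germline, 2-cell stage and trophoblast genes listed as known to be kept silent by H3K9 methylation or Trim28, 10 were tested. The list was written with earlier results of these data known, so its counts are a description and not a test. Among the 10, 4 rose in each knockdown, where 7.54% of all genes tested rose in *Smarcc1* knockdown and 4.75% in *Smarca4* knockdown. These were *Mael* (0.74 and 1.17), *Taf7l* (0.74 and 0.76) and *Ddx4* (0.42 and 0.69) in both, *Dazl* (0.91) in *Smarcc1* knockdown and *Zscan4d* (0.93) in *Smarca4* knockdown, the last being uncertain because it belongs to a family of near-identical copies.

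The change from day 4 to day 7 was also compared between each knockdown and Nons. For the 9 genes 0 interactions were called with *Smarcc1* knockdown, against 0.459% of all genes tested, and 0 with *Smarca4* knockdown, against 0.0827%. In each, an unadjusted *p* under 0.05 was reached by 1 gene, *Suv39h1*. Its log2 differences were 0.67 ± 0.29 with *Smarcc1* knockdown (SE, limma adjusted *p* = 0.552) and 0.63 ± 0.29 with *Smarca4* knockdown (SE, limma adjusted *p* = 1.00). On day 4 its level in the 4 hairpin libraries was 77.0% to 83.2% of Nons, and on day 7 it was 119% to 134%. Nons is represented by 1 library on each of these days.

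Over the 20 libraries the gene most like *Trim28* in log2 rpm, among the 13296 tested, was *Smpd4* (Pearson *r* = 0.984), followed by *Epas1* (0.983). *Setdb1* was most like *Qrich1* (0.986) and *Ptbp1* (0.978), *Ehmt1* like *Nedd4* (0.967) and *Ankrd17* (0.959), and *Ehmt2* like *Uhrf1* (0.970) and *Pnpla6* (0.966). *Suv39h1* was most like *Acot11* (0.917) and *Stat2* (0.913), and *Suv39h2* like *Pot1b* (0.939) and *Gm14326* (0.885). *Cbx1* was most like *Wdr12* (0.976) and *Ttpa* (0.975), *Cbx3* like *Mki67ip* (0.963) and *Ccdc132* (0.961), and *Cbx5* like *Col4a3bp* (0.967) and *Ttc37* (0.961). Among the 9 genes themselves, *Ehmt2* and *Trim28* were the closest pair (*r* = 0.939), followed by *Setdb1* and *Ehmt2* (0.914). With the mean of each day taken out, *Ehmt2* and *Trim28* stood at 0.897 and *Setdb1* and *Ehmt1* at 0.878, while *Cbx3* and *Trim28* went from 0.760 to -0.560. These correlations are descriptions, since the libraries share days, series and a scale set by the library total.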

How the data were processed

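Gene expression was measured by bulk RNA-seq in 20 of the 24 labelled samples; columns matching no sample numbered 0. Per the authors' methods, trim_galore was used for trimming and tophat or HISAT2 (HISAT2 per the labels) for alignment to mm10, and SeqMonk then gave the deposited log2 rpm value of each gene. The annotation release and strand setting are not given in the sources used here. Each library's lowest value equals 0.9 of a read, from which whole reads were recovered (100% of values under 1000 reads, within 0.1 read).

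Levels were back-transformed to rpm and, between genes, divided by the merged exon length of GENCODE M21. Differences were fitted with limma 3.58.1 in R 4.3.3 (lmFit, eBayes with trend) on the 13296 genes whose log2 values averaged 0 or more. Each of the 12 group and day cells had its own mean, and contrasts were averaged over days or groups. *p*-values were adjusted by Benjamini-Hochberg over all genes tested, with a threshold of 0.05. Nons had 1 library per day, so the spread was estimated from the hairpin pairs alone (8 residual degrees of freedom). The script was tested on simulated data. Promoter windows are from RefSeq.

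Genes named were the 9, the knockdown targets, the 2 genes most like each of the 9, and at most 3 called genes with the largest change per list and comparison; other genes named, the marker genes among them, were chosen after their values were seen. The members and lists were chosen with earlier results of these data known. *Tasor* and *Kdm7a* are listed under the older symbols *D14Abb1e* and *Jhdm1d*. Hairpin numbers pair no cultures across groups. The main design had no block for the culture series, and the block was an alternative. Deviations of the hairpins from each other correlated between days at -0.206 to 0.367 for *Smarca4*, and for *Smarcc1* at 0.0233 to 0.0604 with day 4 and up to 0.823 among days 5 to 7. Alternatives were no filter or a stricter one (a mean of 10 rpm), 1 added to rpm, centring on the median gene, quantile normalization, limma-voom on recovered reads, an additive model, the culture series as replicate block, and omission of each hairpin or of the smallest library.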

Additional observations from a re-analysis of the deposited data

Results flagged for a closer look

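The difference of the hairpin libraries from Nons pointed one way on one day and the other way on another for 2 genes; each day's 4 hairpin libraries share 1 Nons library. *Suv39h1* was below Nons in 4 of 4 libraries on day 4 (77.0% to 83.2% of Nons) and above it in 4 of 4 on day 6 (107% to 129%) and day 7 (119% to 134%), so the mean log2 difference moved by 0.56 to day 6, which was not tested, and by 0.65 to day 7. The latter was tested as an interaction for each knockdown and did not pass the threshold after adjustment, as given above. *Cbx3* was above Nons in 4 of 4 libraries on day 4 (log2 differences of 0.051 to 0.18) and below it in 4 of 4 on day 5 (-0.64 to -0.074), a move of -0.52 on the log2 scale that was not tested.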

How the results depend on the processing

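Of 684 values recomputed under the alternatives, 655 kept their direction and their side of the threshold, 8 passed the threshold where the reported value did not, and 21 changed sign, all of them of differences that were not called. The count of the 9 genes called was 0 under every alternative for each knockdown against Nons, between the knockdowns and for the interactions, except that leaving out a hairpin gave 0 to 1 in *Smarcc1* knockdown (*Trim28*, without Smarcc1.6). It was 6 to 8 between day 7 and day 4. The added calls were *Cbx5* under the additive model (-0.44), centring on the median gene (-0.58), the replicate block (-0.41, adjusted *p* = 0.0367) and the libraries left out above, and *Suv39h2* under centring (-0.32, adjusted *p* = 0.0483). Centring lowered the day 7 to day 4 median of all genes by 0.18, from 0.08 to -0.09; *Trim28* was then -2.18 and *Suv39h1* 0.27 (adjusted *p* = 0.0442). The replicate block (consensus correlation 0.217) gave *Trim28* adjusted *p* values of 0.319 and 0.356 in *Smarcc1* and *Smarca4* knockdown and changed no call besides that of *Cbx5*. No interaction could be fitted in the additive model.

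Sign changes were, against Nons, *Suv39h1* in *Smarcc1* knockdown (-0.0035) and the *Suv39h2* interaction with *Smarcc1* knockdown (-0.0055) under centring, and *Cbx5* in *Smarca4* knockdown (0.017) and *Trim28* between the knockdowns (0.057) under quantile normalization. With libraries left out, the difference against Nons ran from -0.057 to 0.40 (*Setdb1*) and -0.057 to 0.020 (*Suv39h2*) in *Smarcc1* knockdown, and from -0.028 to 0.18 (*Setdb1*), -0.077 to 0.25 (*Ehmt1*) and -0.27 to 0.14 (*Cbx5*) in *Smarca4* knockdown. Between the knockdowns it ran from -0.14 to 0.32 (*Setdb1*), -0.028 to 0.30 (*Ehmt1*), -0.15 to 0.051 (*Ehmt2*), -0.083 to 0.0084 (*Suv39h1*), -0.21 to 0.14 (*Trim28*), -0.14 to 0.089 (*Cbx3*) and -0.074 to 0.34 (*Cbx5*). A hairpin left alone was assumed to vary like the other groups. The cause of these moves was not tested.

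Counts over all genes moved more: 491 to 1797 (1412 as reported) for *Smarcc1* knockdown, 258 to 1144 (892) for *Smarca4* knockdown, 49 to 1067 (544) between the knockdowns, 5538 to 10806 (8575) for day 7 against day 4, and 0 to 175 (61) and 0 to 20 (11) for the interactions. The share of calls that were higher fell from 71.0% to 55.0% in *Smarcc1* knockdown and from 70.7% to 54.8% in *Smarca4* knockdown under quantile normalization, and to 60.5% in the latter under centring. Depth limits little here, as each of the 9 genes had at least 270 reads in each library; the single Nons series limits each contrast with Nons.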
